A study of Homo sapiens with 6 samples.

Results

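The ZNF genes described here encode zinc finger proteins, most of them transcription factors that touch DNA through tandem C2H2 fingers, in which paired cysteines and paired histidines hold a zinc ion. Members were the rows of the expression table whose symbol is ZNF followed by a number (with at most 1 closing letter) and whose mean over the 6 libraries was at least 5 FPKM (fragments per unit of transcript length, relative to all mapped fragments of a library). This rule gave 187 members among 509 ZNF rows, or 36.7% of them, in a table of 24872 rows. They were thus chosen by their mean FPKM, and their levels are given as a description. Differences between the groups were not used by the rule, apart from its effect on members close to 5 FPKM.

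Many ZNF proteins carry a KRAB box, a short domain that binds the scaffold TRIM28 (KAP1). TRIM28 in turn brings the histone methyltransferase SETDB1, HP1 proteins and deacetylases to DNA, and the main known use of this system is the silencing of transposable elements. KRAB ZNF genes expanded by tandem duplication in primates, above all in clusters on chromosome 19, so that neighbours are often close relatives. ZNF proteins without the box are a mixed class of activators, corepressor subunits and RNA-binding proteins.

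RNA came from 22RV1, an established human prostate cancer cell line that grows without androgen, at day 2 in all groups. There were 3 groups of 2 libraries. NC was the control, OE the overexpression of MAGI2-AS3, a long noncoding RNA, and mimics the group given the microRNA miR-106a-5p. The labels do not describe NC, speak of overexpression plasmids for both agents, and do not say whether replicates were separate cultures, so each p-value measures the spread between these libraries only, which may be technical. MAGI2-AS3 and miR-106a-5p themselves were not analysed here.

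FPKM summed to between 402526 and 429262 per library, and 12344 to 12983 rows reached 1 FPKM. Read depth is unknown, so no counting error can be given. The members took between 0.464% and 0.547% of the summed FPKM. Luminal prostate markers were present: KLK3 lay between 10.7 and 35.8 FPKM and KRT8 between 317 and 672 FPKM, both highest in mimics replicate 1. The basal list (KRT5, KRT14 and TP63) summed to at most 0.287 FPKM, with KRT5 listed at 0 in every library, and the endothelial list to at most 0.0728 FPKM. Among the leukocyte genes CD3E was listed at 0 throughout, and CD68 lay between 1.82 and 2.96 FPKM. The fibroblast list summed to 85.6 to 90.2 FPKM in NC and OE, and to 177 and 108 FPKM in mimics, nearly all of it LUM, while COL1A2 stayed at or near 0. The other listed fibroblast genes, COL1A1 (0.242 to 0.682 FPKM in NC and OE, 1.16 and 1.44 in mimics) and DCN (2.28 to 3.01, then 4.41 and 3.40), were also higher in both mimics libraries. Mitochondrially encoded genes made up 9.14% and 8.29% of the FPKM in NC, 9.67% and 9.49% in OE, and 6.23% and 0.533% in replicates 1 and 2 of mimics. The part of these shifts in the results below was not tested, except that all values were also computed after rescaling without the mitochondrially encoded genes.

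Member means ran from 5.01 to 87.7 FPKM with a median of 8.42. Of the 187 members, 69 averaged at least 10 FPKM and 19 at least 20 FPKM, and 148 were at or above 5 FPKM in every library. In 24 members the mean of at least 1 group was under 5 FPKM. They include 4 of the 17 members past the threshold in mimics against NC or OE against mimics: ZNF726, ZNF100, ZNF107 and ZNF724. These met the rule through their NC and OE libraries, since both mimics libraries were under 5 FPKM in each. Closest inside the threshold were ZNF718 at 5.01, ZNF670 at 5.02 and ZNF567 at 5.02 FPKM, and closest outside were ZNF552 at 4.99, ZNF708 at 4.97 and ZNF772 at 4.91 FPKM.

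A KRAB box was found by a pattern search of the annotated coding transcripts in 91 members, and 96 had none. The search misses divergent boxes. KRAB members had a median mean level of 7.23 FPKM and a median of 11 fingers, and the others 10.3 FPKM and 5 fingers. Members made up 28.4% of the 320 ZNF rows with the box and 50.8% of the 189 ZNF rows without it. Of the 19 members at 20 FPKM or more, 2 had the box. Chromosome 19 held 66 members, chromosome 7 held 20 and chromosome 16 held 16.

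**Figure D1:**
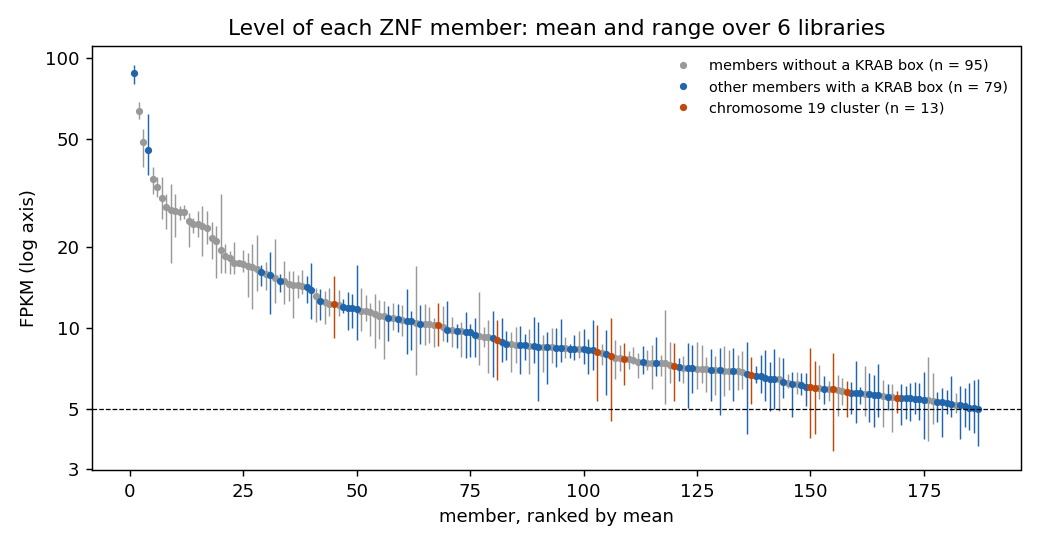
FPKM of the 187 ZNF members on a log axis, ranked by mean; points are means over 6 libraries, lines run from the lowest to the highest library, and the dashed line is the threshold of 5 FPKM. Colours separate the 13 members of the chromosome 19 cluster described below, 79 other members with a KRAB box and 95 other members without one; most of the members above 20 FPKM lack the box.

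ZNF595, a KRAB member with 17 fingers near the start of the short arm of chromosome 4, had the highest mean. Its FPKM was 87.9 and 80.3 in NC, 94.1 and 91.1 in OE, and 81.5 and 91.4 in mimics, and the groups overlapped except that both OE libraries lay above both NC libraries. ZNF664 followed, with 67.1 and 60.7 FPKM in NC, 68.8 and 65.3 in OE, and 59.6 and 60.1 in mimics. ZNF207 (BuGZ), which binds microtubules and BUB3 and helps chromosomes align in mitosis, stood at 53.5 and 49.1 FPKM in NC, 50.5 and 54.6 in OE, and 39.6 and 45.8 in mimics. Both mimics libraries were below the other 4 for ZNF207, but its change against NC of -0.27 on the log2 scale had an adjusted p of 0.176 in limma. ZNF207 shared 18.4% of its 50-base stretches, mostly with AC005899.4, which overlaps it on the same strand, so its level is uncertain to that extent. ZNF789, the other KRAB member above 20 FPKM, had 53.6 and 44.1 FPKM in NC, 40.8 and 37.0 in OE, and 36.9 and 62.2 in mimics. Its mimics libraries spanned all the others, and both OE libraries lay below both NC libraries, a change of -0.32 (SE 0.21, adjusted p 0.951).

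The other members among the 10 highest means were ZNF24, a SCAN-domain factor (mean 35.6 FPKM), ZNF217, a subunit of CoREST and CtBP corepressor complexes that is amplified in some breast cancers (33.3), ZNF146 (30.4), ZNF76, a relative of the promoter-binding activator ZNF143 (28.0), ZNF503, a corepressor of the NET family (27.3), and ZNF768 (27.2). None of the 10 passed the threshold in any comparison by limma. ZNF217, for example, had 35.5 and 31.0 FPKM in NC, 33.4 and 32.8 in OE, and 30.6 and 36.4 in mimics, fully overlapping. For ZNF503 the mimics libraries stood apart from each other, at 17.4 and 34.0 FPKM.

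Replicates differed least in OE. The median gap between replicates over the members was 0.17 on the log2 scale in NC, 0.09 in OE and 0.20 in mimics. A gap over 0.5 was found in 5 members in NC, 3 in OE and 7 in mimics. The widest in NC were those of ZNF326, a subunit of the DBIRD complex that couples splicing to transcription, at 13.3 and 8.38 FPKM, and of ZNF718, at 6.45 and 4.15 FPKM. In OE they were ZNF639, at 31.3 and 18.9 FPKM, and ZNF277, at 8.09 and 5.21 FPKM.

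The first comparison asked which members differed when MAGI2-AS3 was overexpressed. No member passed the threshold for OE against NC, an adjusted p under 0.05 in limma over 13998 rows. Of all tested rows, 0.0143% passed as higher and 0.243% as lower. At an unadjusted p under 0.05, 4 members were higher and 1 was lower, against 1.64% and 4.84% of all tested rows. The members' median change was 0.05 on the log2 scale, against -0.02 over all tested rows.

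By unadjusted p the nearest were ZNF793, ZNF593 and ZNF385B. ZNF793, a KRAB member, had 6.03 and 5.35 FPKM in NC and 8.25 and 7.61 in OE, a change of 0.45 (SE 0.14, 95% interval 0.14 to 0.76) with an adjusted p of 0.527. ZNF593, a homologue of a yeast factor of ribosome assembly, had 20.9 and 20.5 FPKM in NC and 27.0 and 25.1 in OE, a change of 0.33 (SE 0.11) with an adjusted p of 0.575. In both genes the OE libraries lay above the NC libraries. ZNF639 had the largest estimate, 0.59 (SE 0.20, adjusted p 0.584), which came mainly from OE replicate 1: 16.0 FPKM in both NC libraries against 31.3 and 18.9.

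Both OE libraries lay above both NC libraries in 41 members, or 21.9%, against 15.4% of all tested rows. Both lay below in 19 members, or 10.2%, against 26.5% of all tested rows. With a KRAB box, 26 of 91 members lay above and 2 below, and their median change was 0.09. Without the box, 15 of 96 lay above and 17 below, with a median of 0.005. This was small beside the replicate gap: for KRAB members outside the chromosome 19 cluster, the median deviation from the NC mean was 0.09 and -0.09 in the NC libraries and 0.14 and 0.06 in the OE libraries, so that OE replicate 2 lay between the NC libraries.

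The second comparison asked which members differed in cells given miR-106a-5p. Against NC, 4 members rose and 4 fell. Of all tested rows 4.29% rose and 3.71% fell, so the members' 4 and 4 of 187 were a smaller share in each direction. A size over 0.5 on the log2 scale was reached by 5.88% of members and by 11% of the 8710 other rows averaging at least 5 FPKM.

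The 4 that rose had no KRAB box by the search. ZNF385A (HZF), a p53 target that binds p53 and also RNA, had 7.29 and 7.91 FPKM in NC, 7.37 and 7.39 in OE, and 13.6 and 12.3 in mimics. Both mimics libraries stood well above the other 4, and the change against NC was 0.73 (SE 0.12, limma adjusted p 0.0101). Its relative ZNF385B rose most, from 7.24 and 6.65 FPKM in NC to 16.9 and 12 in mimics, a change of 0.99 (SE 0.16, adjusted p 0.0102). The OE libraries, at 10.1 and 9.67 FPKM, lay between these groups without overlap. The representative transcript of each shared no stretch of 50 bases with another gene's transcripts. That of ZNF385B held only its 1416 coding bases, so its untranslated regions were not checked.

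ZNF581 had 12.4 and 13.4 FPKM in NC, 12.5 and 13.4 in OE, and 21.3 and 19 in mimics, a change of 0.63 (SE 0.11, adjusted p 0.0147). ZNF395, a factor induced by hypoxia, had 14.9 and 15.0 FPKM in NC, 13.6 and 13.7 in OE, and 20.2 and 22.0 in mimics, a change of 0.49 (SE 0.10, adjusted p 0.0259). In both, NC and OE were close and mimics stood apart. Both overlap a neighbour on the same strand, which leaves the assignment of reads uncertain: ZNF581 shared 16.1% of its 50-base stretches, mostly with ZNF580, and ZNF395 shared 41.7%, mostly with FBXO16.

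The 4 that fell were ZNF726, ZNF714, ZNF85 and ZNF367. ZNF726, a KRAB member with 16 fingers, fell most. It met the rule through NC and OE, as its mean in mimics was 4.60 FPKM. Its FPKM was 10.9 and 8.72 in NC, 8.88 and 9.46 in OE, and 4.69 and 4.51 in mimics, a change of -1.01 (SE 0.14, 95% interval -1.33 to -0.69, limma adjusted p 0.00545). Both mimics libraries were far under the other 4, while NC and OE overlapped. ZNF726 shared 16.6% of its 50-base stretches, mostly with the pseudogene ZNF92P3, so its level is uncertain to that extent.

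ZNF367, a finger protein known as an activator of erythroid genes, is the one of the 4 that is not in the chromosome 19 cluster. It had 20.4 and 17.5 FPKM in NC, 18.9 and 18.1 in OE, and 11.7 and 14.4 in mimics, a change of -0.52 (SE 0.13, adjusted p 0.0474). ZNF714 fell from 9.40 and 10.1 FPKM to 6.40 and 7.23, by -0.49 (SE 0.12), and ZNF85 from 7.82 and 7.56 to 5.34 and 5.46, by -0.47 (SE 0.12). Both had an adjusted p of 0.0462, and in both the mimics libraries were lowest.

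Calls in this comparison depended on which libraries were in the fit. Leaving out 1 library leaves 1 in a group, so calls lost or gained do not show which library they rest on. With 1 library left out, the estimates of all 8 kept their sign. They ran from -1.16 to -0.85 for ZNF726, from -0.66 to -0.38 for ZNF367, from 0.66 to 0.80 for ZNF385A and from 0.75 to 1.23 for ZNF385B. Without mimics replicate 2, the library low in mitochondrial transcripts, the members' median change was -0.10 in place of -0.05. Without mimics replicate 1 it was 0.01. Rescaling without the mitochondrially encoded genes gave 7 that fell and moved the members' median change from -0.05 to -0.14.

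**Figure D2:**
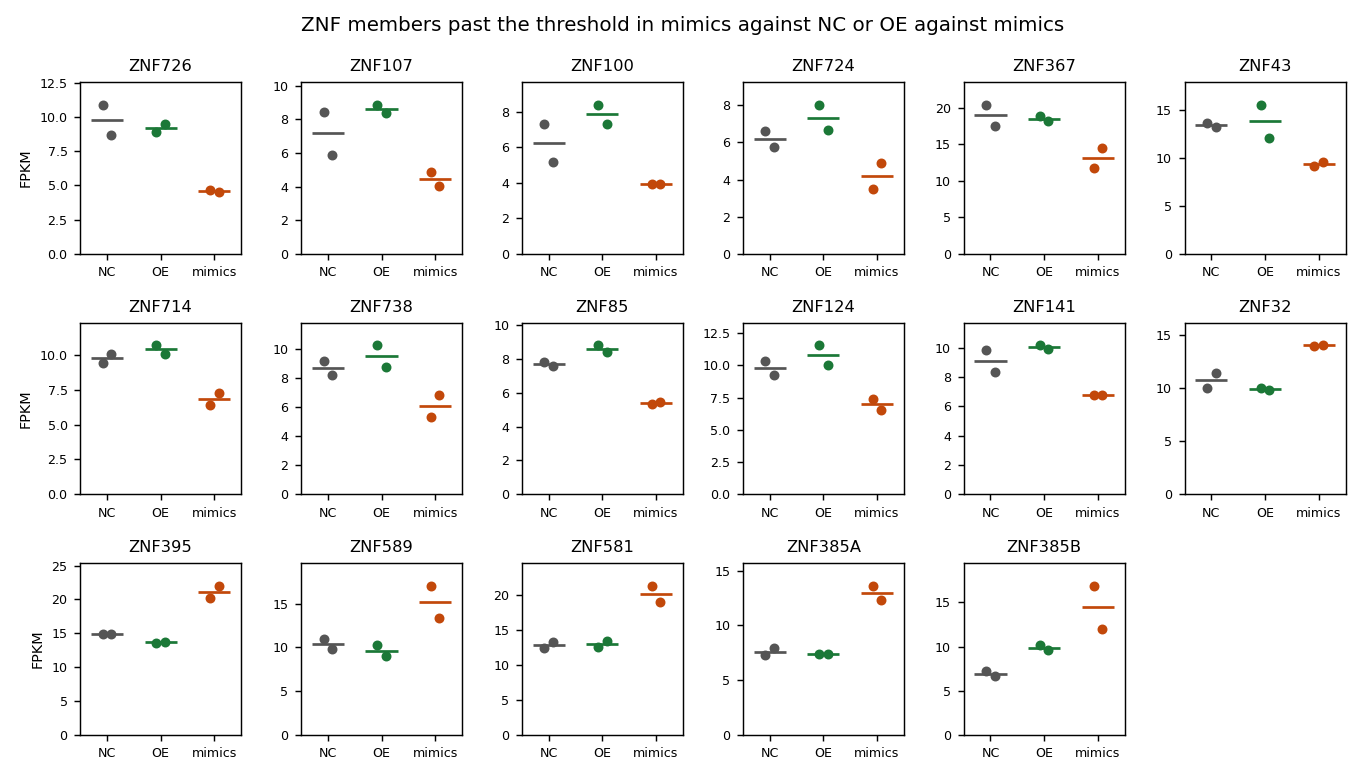
FPKM in each library (points) and the mean of each group of 2 (bars) for the 17 members past the limma threshold in mimics against NC or in OE against mimics, ordered by their change in mimics against NC. Axes start at 0 and differ between panels; ZNF726 lies near 4.6 FPKM in both mimics libraries against 8.7 to 10.9 in the others, and ZNF385A near 13 against 7.3 to 7.9.

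The third comparison set the treated groups against each other. OE and mimics differed at 15 members: 10 were higher in OE and 5 were lower. Of all tested rows 2.52% were higher and 5.32% lower. Of the 8710 other rows averaging at least 5 FPKM, 313 were higher and 449 lower. More members were thus called higher than lower, and in both row sets more rows were called lower. Both OE libraries lay above both mimics libraries in 70 members (37.4%), against 25.2% of all tested rows and 29.5% of the 8710. Both lay below both mimics libraries in 34 (18.2%), against 30.5% and 27.6%. The members' median was 0.10 on the log2 scale, against -0.02 over all tested rows and 0.02 over the 8710. Part of the contrast with all tested rows thus goes with expression level. Since OE is common to this comparison and the first, and mimics to this and the second, the 3 are not independent.

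Of the 10 higher in OE, 7 belong to the chromosome 19 cluster and the others are KRAB members elsewhere. Among the 10, ZNF726, ZNF100, ZNF107 and ZNF724 met the rule through NC and OE, as given above. ZNF107, on chromosome 7, had 8.47 and 5.89 FPKM in NC, 8.88 and 8.41 in OE, and 4.86 and 4.04 in mimics, a difference of 0.89 (SE 0.18, limma adjusted p 0.0208). ZNF124, on chromosome 1, had 11.6 and 10.0 FPKM in OE and 7.38 and 6.56 in mimics, a difference of 0.60 (SE 0.13, adjusted p 0.0299). ZNF141, on chromosome 4, had 10.2 and 9.89 FPKM in OE and 6.75 and 6.76 in mimics, a difference of 0.54 (SE 0.13, adjusted p 0.0363). In all 3 the NC libraries also lay above both mimics libraries, with changes of mimics against NC of -0.62, -0.46 and -0.40 that did not pass (adjusted p 0.0682, 0.0665 and 0.0894).

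The 5 lower in OE were ZNF385A, ZNF581 and ZNF395, which also rose against NC, with ZNF589 and ZNF32. ZNF385A differed by -0.77 (SE 0.12, adjusted p 0.00882), ZNF581 by -0.62 (SE 0.11, 0.0156) and ZNF395 by -0.61 (SE 0.10, 0.0124). ZNF589, a KRAB factor of blood stem cells, had 10.9 and 9.81 FPKM in NC, 10.3 and 8.99 in OE, and 17.0 and 13.3 in mimics. ZNF32 had 9.99 and 11.4 FPKM in NC, 9.99 and 9.76 in OE, and 14 in each mimics library. Both mimics libraries were the highest for both genes, which differed between OE and mimics by -0.62 (SE 0.15, adjusted p 0.0356) and -0.48 (SE 0.12, adjusted p 0.0389). ZNF385B, which rose against NC, differed by -0.50 with an adjusted p of 0.0892.

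These calls also depended on which libraries were in the fit, and were lost when an OE library was left out. Such a fit leaves 1 library in a group, so the loss does not show which library the calls rest on. With 1 library left out, the estimates of all 15 kept their sign. They ran from 0.88 to 0.97 for ZNF726, from -0.84 to -0.70 for ZNF385A, from 0.54 to 0.97 for ZNF724 and from 0.35 to 0.70 for ZNF43.

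**Figure D3:**
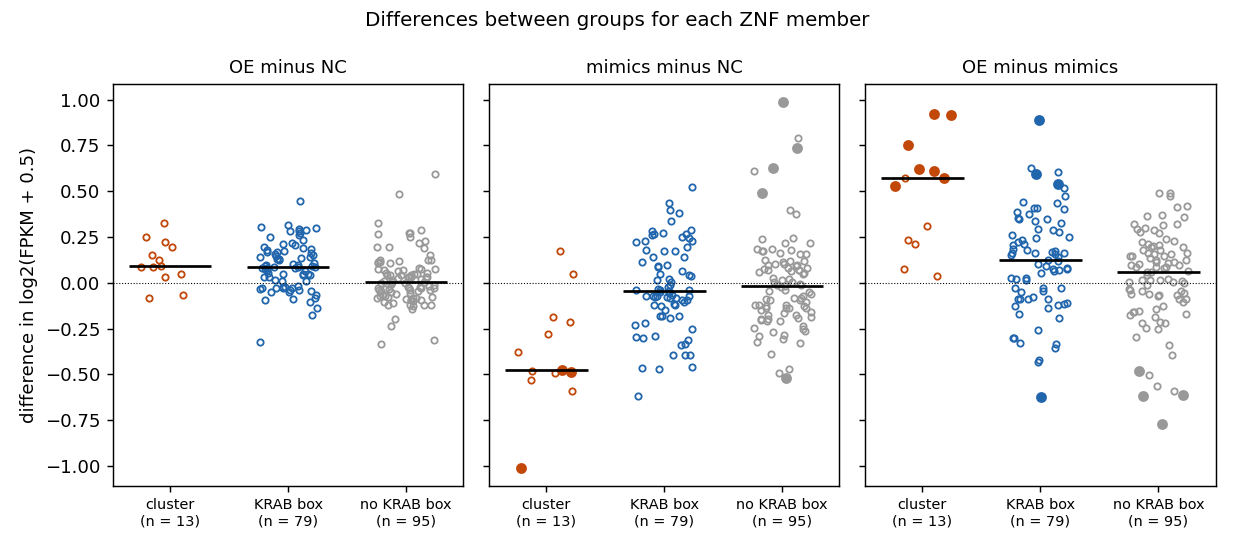
Difference in log2(FPKM + 0.5) for each ZNF member in the 3 comparisons, split into the chromosome 19 cluster (n = 13), other members with a KRAB box (n = 79) and other members without one (n = 95). Filled points passed the limma threshold and bars are medians; in mimics minus NC the cluster's median is -0.47 against -0.05 for the other KRAB members, and the comparisons share libraries.

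ZNF726, ZNF714 and ZNF85 lie on chromosome 19, in a cluster of KRAB ZNF genes. A window on chromosome 19 was drawn around them after their values were seen, so its values describe the cluster and test nothing. It holds 37 ZNF rows, of which 13 were members, spanning 19668796 to 24129961 (GRCh38): ZNF101, ZNF85, ZNF714, ZNF738, ZNF429, ZNF100, ZNF43, ZNF724, ZNF91, ZNF675, ZNF681, ZNF726 and ZNF254, in that order. All have a KRAB box by the search but ZNF714.

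Their FPKM summed to 111 and 97.1 in NC, 117 and 106 in OE, and 78.1 and 78.7 in mimics, so the mimics libraries were lowest and close to each other. Against NC, 11 of the 13 had estimates below 0 and the median was -0.47. The 3 that passed (against 3.71% of all tested rows passing as lower) are those the window was drawn around. Both mimics libraries lay below both NC libraries in 9 of 13, against 25.6% of all tested rows, and above them in none, against 27.2%. The 53 other members on chromosome 19 had a median of 0.05 with 0 falling, and all 174 members outside the window had a median of -0.04. Between OE and mimics all 13 estimates were above 0, with a median of 0.57, and 7 passed, against 2.52% of all tested rows passing as higher. ZNF726, ZNF100 and ZNF724, which are among the 7, met the rule through NC and OE. The rule itself thus favours lower values in mimics among the cluster's members. The counts past the threshold depended on which libraries were in the fit. With 1 library left out, the cluster's median ran from -0.50 to -0.35 in mimics against NC. Between OE and mimics it ran from 0.49 to 0.64. For OE against NC, with all 6 libraries, the median was 0.09 and none passed.

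Within the cluster the members differed. ZNF100 had 7.30 and 5.17 FPKM in NC, 8.40 and 7.30 in OE, and 3.91 and 3.92 in mimics, and it differed between OE and mimics by 0.92 (SE 0.17, limma adjusted p 0.0169). ZNF724 had 6.62 and 5.77 FPKM in NC, 8.03 and 6.64 in OE, and 3.49 and 4.88 in mimics, a difference of 0.75 (SE 0.18, adjusted p 0.0375). Their mimics libraries were below all others. ZNF726 differed between OE and mimics by 0.92 (adjusted p 0.00824), ZNF85 by 0.62 (0.0180), ZNF738 by 0.61 (0.0459), ZNF714 by 0.57 (0.0258) and ZNF43 by 0.53 (0.0499).

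ZNF91, which has 31 fingers, the most of any member, and is known to silence the hominoid SVA retrotransposons, went the other way against NC. It had 7.64 and 6.12 FPKM in NC, 8.75 and 7.73 in OE, and 8.43 and 7.20 in mimics. The mimics libraries overlapped both other groups, with a change against NC of 0.18 (SE 0.15, adjusted p 0.503), while both OE libraries lay above both NC libraries. ZNF429 was level, with 5.83 and 4.84 FPKM in NC, 5.74 and 5.58 in OE, and 5.48 and 5.53 in mimics. ZNF675, ZNF681, ZNF254 and ZNF101 had estimates for mimics against NC of -0.28, -0.38, -0.22 and -0.18, and none of these passed.

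The same window holds rows that are no members. The 17 tested ZNF rows averaging under 5 FPKM had a median change of -0.32 in mimics against NC, with 11 below 0, 10 non-overlapping and lower (against 25.6% of all tested rows), 3 non-overlapping and higher (against 27.2%), and none past the threshold. Between OE and mimics these 17 rows had a median of 0.44, with 4 below 0 and none past the threshold. ZNF708, just outside the rule, was one of them, with 5.90 and 4.82 FPKM in NC, 5.51 and 5.94 in OE, and 4.67 and 2.98 in mimics. The 11 tested rows in the window that are not ZNF genes had a median of 0.07, with 3 below 0. Close relatives can take each other's reads, and 3 of the 13 members shared over 10% of their 50-base stretches, up to 55.9% in ZNF724. These were ZNF726, ZNF100 and ZNF724, which had the cluster's largest falls in mimics against NC (-1.01, -0.59 and -0.53). They also had its largest differences between OE and mimics (0.92, 0.92 and 0.75). The 10 members with less sharing had a median of -0.33 in mimics against NC, with 8 below 0 and 2 past the threshold. Between OE and mimics their median was 0.42, with 4 past the threshold.

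**Figure D4:**
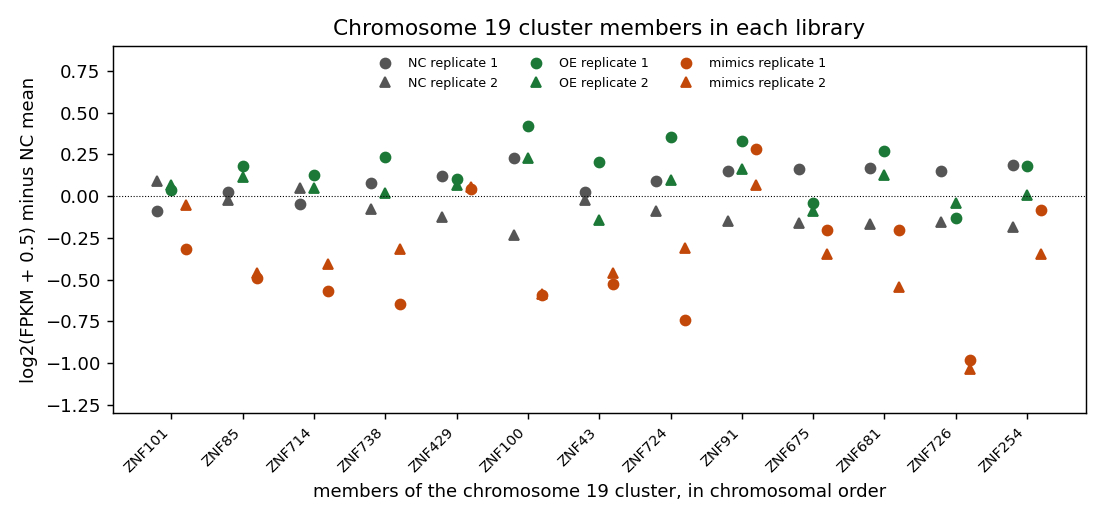
The 13 members of the chromosome 19 cluster in chromosomal order; the vertical axis is log2(FPKM + 0.5) minus the mean of the NC libraries, circles are replicate 1 and triangles replicate 2. The mimics libraries lie below 0 for 11 of the 13 by their mean, and ZNF91 and ZNF429 are the exceptions.

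The promoters of the cluster show how closely its members are related. RefSeq promoter windows (250 bases before to 50 after the annotated start, GRCh38.p14) were found for 163 of the 187 members and for 12 of the 13 in the cluster. Among all words of 12 letters, read on both strands, 3 were shared by 9 of the 12, the most shared of any: AGAGACAAAGGC, GTCCAATCAGGC and TGCCTGATTGGA. The reverse complement of the last overlaps the second in 11 letters, and both hold, on 1 strand, the CCAAT sequence that the factor NF-Y is known to bind. Of 27305 promoters in the table, AGAGACAAAGGC was in 25 (0.0916%), GTCCAATCAGGC in 30 (0.11%) and TGCCTGATTGGA in 27 (0.0989%). The words were chosen for being shared, so their frequency is a description.

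Stretches of 60 bases around GTCCAATCAGGC, in capitals, are printed 5′ to 3′ on the gene's strand to show the shared letters in members with large and small changes. The first 4 come from members with lower levels in mimics (ZNF726 at chr19:23914802-23914861, plus strand; ZNF714 at chr19:21082119-21082178, plus; ZNF100 at chr19:21767597-21767656, minus; ZNF107 at chr7:64666055-64666114, plus). ZNF91 (chr19:23395496-23395555, minus) did not fall.
ZNF726: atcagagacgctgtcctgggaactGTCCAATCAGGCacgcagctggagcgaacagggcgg
ZNF714: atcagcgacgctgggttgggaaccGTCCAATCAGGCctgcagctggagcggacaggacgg
ZNF100: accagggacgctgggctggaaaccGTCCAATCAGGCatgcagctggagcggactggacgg
ZNF107: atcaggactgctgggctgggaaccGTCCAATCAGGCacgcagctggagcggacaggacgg
ZNF91: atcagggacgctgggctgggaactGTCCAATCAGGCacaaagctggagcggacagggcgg

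Each of the 5 carries the word between 53 and 60 bases before its start. At least 1 of the 3 words was in 18 members with a promoter: 11 in the cluster and ZNF107, ZNF124, ZNF92, ZNF138, ZNF680, ZNF195 and ZNF519 elsewhere. The 11 in the cluster are the members the words were taken from, so their changes repeat those already given. The 7 elsewhere had a median change in mimics against NC of -0.39, with 7 of 7 below 0, and none passed. Of these 7, 4 were non-overlapping and lower, against 25.6% of all tested rows. The 145 members whose promoter holds none had a median of -0.02, with 78 below 0 and 29 non-overlapping and lower. The 79 KRAB members outside the cluster, which include carriers of the words, had a median of -0.05. Of these, 46 were below 0 and 14 non-overlapping and lower. The 7 were named after their values were seen, are a description and were not tested as a group. ZNF107, with the largest fall of the 7 (-0.62), met the rule through NC and OE, as both its mimics libraries were under 5 FPKM. The words mark related genes, and ZNF91 (0.18) and ZNF429 (0.05) carry them with estimates above 0.

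The microRNA given to the mimics cells pairs with targets through its seed, bases 2 to 8, in capitals here as listed by RefSeq (chromosome X, GRCh38.p14). Its site in a message reads GCACTTT.
hsa-miR-106a-5p: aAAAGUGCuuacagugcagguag

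This site was in the annotated 3′UTR of 64 members (34.2%), against 3035 of 12291 tested rows with a coding transcript (24.7%). Members with the site had a median change of -0.02 in mimics against NC, with 34 of 64 below 0, and the 123 members without it a median of -0.07, with 74 below 0. Over the tested rows the medians were 0.002 with the site and -0.005 without. Of the 92 matches in members, 33 (35.9%), in 23 members, stood between CCA and GG, the setting the site has in Alu repeats. The 50 members with a match elsewhere had a median of 0.01.

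Of the 4 members that fell against NC, ZNF367 and ZNF714 hold matches and ZNF726 and ZNF85 hold none. ZNF385A, which rose, holds a match too. The site is in capitals in these windows of 29 bases from the 3′UTRs of ZNF367 and ZNF385A.
ZNF367, first match: agagagaactGCACTTTtttaatatggaa
ZNF367, second match: ctcacaggaaGCACTTTctgaataagaca
ZNF385A: tccctcataaGCACTTTggttttaccgcc

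The role lists that follow are short, so their counts past the threshold are a description and no result about roles. Of all tested rows, 4.29% passed as higher and 3.71% as lower in mimics against NC. In OE against mimics 2.52% and 5.32% did. Among 9 listed RNA-binding and ribosome factors, all members, ZNF385A alone passed in any comparison. Of the 9, 4 were non-overlapping and higher in mimics than in NC (against 27.2% of all tested rows) and 1 lower (against 25.6%). ZNF638, a chromatin and RNA-binding protein that helps the HUSH complex silence foreign DNA, had 23.6 and 17.9 FPKM in NC, 24.6 and 20.5 in OE, and 21.2 and 20.7 in mimics. None of 7 listed promoter-binding factors, all members, passed, with a median change in mimics against NC of -0.08. They include ZNF384 (mean 24.8 FPKM) and ZNF410, known to activate CHD4 (mean 14.2 FPKM). None of the 11 tested ZNF genes listed as corepressor and chromatin complex factors, 9 of them members, passed either, with a median of 0.002, and ZNF592, a partner of ZMYND8, averaged 23.9 FPKM.

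Of the 8 KRAB factors listed with known repeat or gene targets, of which 3 are members, none passed in any comparison. ZNF746 (PARIS), a repressor of PGC-1α, had 11.7 and 12.8 FPKM in NC, 11.3 and 12 in OE, and 11.3 and 12.5 in mimics. ZNF274, which brings SETDB1 to the 3′ ends of other ZNF genes, had 9.15 and 8.88 FPKM in NC, 9.03 and 9.46 in OE, and 9.87 and 12.5 in mimics. Its change in mimics was 0.29 (SE 0.14, limma adjusted p 0.222), although both mimics libraries were the highest.

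The partners of KRAB proteins were well expressed: TRIM28 averaged 239 FPKM, HDAC1 161 and CBX3 (HP1γ) 141. Of all tested rows, 3.71% passed as lower in mimics against NC and 2.52% as higher in OE against mimics. Among the 18 listed corepressor genes, CBX5 (HP1α) alone passed, in these 2 comparisons. It had 76.4 and 67.0 FPKM in NC, 71.1 and 65.9 in OE, and 43.9 and 52.8 in mimics, a change of -0.57 against NC (limma adjusted p 0.0277) and a difference of 0.50 between OE and mimics (adjusted p 0.0416). TRIM28 had 239 and 260 FPKM in NC, 240 and 265 in OE, and 201 and 227 in mimics, a change of -0.22 that did not pass (adjusted p 0.288).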

How the data were processed

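Per the labels' protocols, total RNA (TRIzol) went into Hieff NGS Ultima mRNA libraries. The submitters' processing notes name HISAT2 2.0.4 and GRCh38. How fragments were counted, against which annotation and with which strand setting is not given in the sources used here. FPKM values were deposited by the authors, 1 column per library. FPKM divides by each library's total, so a change in abundant transcripts shifts all others. Counts could not be recovered from the values, so the depth per library is unknown.

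The model was limma 3.58.1 (R 4.3.3), fitted to log2(FPKM + 0.5), as 1 model of all 6 libraries with an intensity trend, for 13998 rows averaging at least 0.5 FPKM, with Benjamini-Hochberg adjustment over all of them. Each fold change is on that scale, which understates the change of low genes. Positive values mean higher in the first group named. With 2 libraries a group an exact permutation test of 1 gene cannot go below 0.333, so none was used. The scripts were tested on simulated data. Members, gene lists and the chromosome 19 window were chosen with earlier results of these data known. Genes named are the 10 highest, up to 10 rises and 10 falls per comparison (or the 3 of lowest p where fewer than 3 passed), up to 3 per role list, those next to the threshold and the widest replicate gaps; members of the window, promoter carriers and ZNF708 were added after their values were seen. Coordinates, fingers, KRAB boxes, shared 50-base stretches and 3′UTRs come from GENCODE 29 (GRCh38), and promoters and the microRNA from RefSeq (GRCh38.p14). The longest 3′UTR of each gene was searched. Shared stretches were counted in a representative transcript of each gene. Alternatives were another pseudocount, filter, scaling, trend or set of libraries, a replicate block, and each library left out.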

Additional observations from a re-analysis of the deposited data

How the results depend on the processing

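No estimate reversed a call under the 16 alternatives. No member passed in OE against NC under any of them. In mimics against NC the 4 rises and 4 falls became 0 and 0 without a filter on low values, and the falls became 1 with only the 4 libraries compared, 7 when rescaled without mitochondrially encoded genes, 1 without the intensity trend and 1 with the replicate block. In OE against mimics the 10 higher and 5 lower became 1 and 0 without the filter, 4 and 3 with only the 4 libraries compared, and 6 and 3 without the trend. The lower count was 3 when rescaled without mitochondrially encoded genes. Leaving out 1 library gave 0 to 6 rises and 0 to 21 falls in mimics against NC, and 0 to 23 higher and 0 to 7 lower in OE against mimics. The cause of these moves was not tested. The median of the chromosome 19 cluster in mimics against NC stayed between -0.56 and -0.35. In the alternatives that kept both libraries of each group compared, 0 to 4 of its members passed as lower in mimics against NC. As higher in OE against mimics, 1 to 7 passed.

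The labels state no pairing by replicate number. Over all tested rows, deviations of same-numbered libraries correlated weakly, at 0.15 for NC with OE, -0.03 for NC with mimics and 0.02 for OE with mimics. Among the 187 members, replicate 1 was the higher in 121 in NC, 123 in OE and 57 in mimics, so some pairing of NC with OE is not excluded. With the number as a block, mimics against NC gave 5 rises and 1 fall, and OE against mimics 10 higher and 4 lower. Of the 15 calls between OE and mimics, 11 passed with the block, and ZNF724, ZNF738, ZNF43 and ZNF32 did not. Without read counts, the precision of single values at 5 to 10 FPKM rests on 2 libraries a group.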
